A study of Mus musculus with 8 samples.

Results

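The unfolded protein response and the quality control machinery of the endoplasmic reticulum (ER) were examined through 37 genes in sorted mouse Paneth cells, the granule-filled secretory cells at the base of the small intestinal crypts. The genes were chosen by name from the known pathway and not by their values, although earlier results of these data were known. They were found by matching each Ensembl gene ID of the count table to its GENCODE symbol. The table held 55414 gene IDs, and 1 symbol (Ddit3) had a second ID that was not used. By branch, 10 genes belonged to IRE1, 15 to ATF6, 8 to PERK, and 4 were shared quality control genes. All 8 mice were C57BL/6J without any engineered allele named in the labels. The water group of 4 mice drank ultrapure (Milli-Q) water, and the zinc group of 4 mice drank water with 25 mM ZnSO4 added, in both cases for 7 days, and neither age nor sex was given in the sources used here. Each mouse gave 1 library of Paneth cells sorted by fluorescence, so that the p-values below measure the spread between these 8 mice.

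The ER senses unfolded proteins with 3 kinds of membrane protein. IRE1 cuts the mRNA of Xbp1 so that it can be spliced into the form that encodes an active transcription factor, whose targets include co-chaperones and genes of ER-associated degradation (ERAD), the route by which misfolded proteins leave the ER. ATF6 travels to the Golgi, is cut there by the site-1 and site-2 proteases, and then switches on chaperone genes, while PERK phosphorylates eIF2α, which slows translation and lets ATF4 be made. Paneth cells secrete large amounts of disulphide-bonded defensins and lysozyme, and the IRE1 and XBP1 pathway is known to matter for their survival and granules. The ATF6 and XBP1 target sets overlap in biology, and each gene was placed here in 1 set only.

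The promoters show which of these genes carry the letters that ATF6 and ATF4 are known to read, and are therefore printed before the values. RefSeq promoter windows on GRCm38.p6, from 250 bases before to 50 bases after a gene's start, were matched for 32 of the 37 genes, and Ern2, Derl1, Atf6, Hyou1 and Manf had no entry. The ER stress response element (ERSE, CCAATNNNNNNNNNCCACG) was searched on both strands and lay in the windows of 8 of the 32 genes. Of all 32851 windows, these included, 39 (0.119%) held it. The 8 genes were the ATF6 targets Hspa5, Hsp90b1, Calr, Creld2 and Derl3, the IRE1 target Dnajc3, and the shared genes Syvn1 and Canx. Each is written on the strand of its gene with 25 bases on either side, all of it upstream of the start, and capitals mark the element, which reads CGTGG to ATTGG where it lies on the other strand.
Hspa5, chr2:34772000-34772068, plus strand: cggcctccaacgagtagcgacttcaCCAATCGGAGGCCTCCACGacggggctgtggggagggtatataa
Hsp90b1, chr10:86705508-86705681, minus strand, with 2 elements: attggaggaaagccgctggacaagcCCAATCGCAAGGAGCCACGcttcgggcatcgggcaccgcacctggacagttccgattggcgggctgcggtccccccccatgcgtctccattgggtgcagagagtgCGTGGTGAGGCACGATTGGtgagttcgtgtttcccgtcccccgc
Calr, chr8:84847050-84847118, minus strand: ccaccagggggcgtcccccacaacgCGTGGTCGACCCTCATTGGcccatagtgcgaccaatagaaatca
Creld2, chr15:88819495-88819563, plus strand: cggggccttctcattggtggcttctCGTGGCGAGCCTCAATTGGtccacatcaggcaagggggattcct
Derl3, chr10:75893217-75893285, plus strand: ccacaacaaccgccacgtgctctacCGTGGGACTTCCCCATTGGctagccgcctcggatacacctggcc
Dnajc3, chr14:118937802-118937870, plus strand: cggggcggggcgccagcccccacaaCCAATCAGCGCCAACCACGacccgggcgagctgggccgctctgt
Syvn1, chr19:6046507-6046575, plus strand: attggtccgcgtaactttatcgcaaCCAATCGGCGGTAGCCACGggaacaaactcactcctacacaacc
Canx, chr11:50325775-50325843, minus strand: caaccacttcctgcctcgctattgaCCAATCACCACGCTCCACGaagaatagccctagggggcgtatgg

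The position of the element differed among the 8 genes. It began 44 bases before the start in Syvn1, 65 in Hspa5, 105 in Dnajc3, 126 in Creld2, 145 in Canx, 156 in Derl3 and 162 in Calr, and the 2 elements of Hsp90b1 began 212 and 107 bases before the start. The shorter ERSE-II (ATTGGNCCACG) was found in Herpud1 and, downstream of the start, in Dnajb11, against 0.0365% of all windows. The UPRE core ACGTGG, which XBP1 is known to bind, was present in 6 genes (Dnajb9, Dnajc3, Edem3, Derl3, Herpud1 and Os9) against 8.31% of all windows, and in Herpud1 it overlapped the ERSE-II. The other UPRE core TGACGTG was found in Hspa5 alone among the 32 genes, against 2.01% of windows. The C/EBP-ATF response element read by ATF4 (CARE, TGATGNAA) was present in the ATF4 targets Asns, Chac1 and Trib3 and in the ATF6 target Herpud1, against 3.97% of windows. The 2 upstream matches among ATF4 targets are shown with the element in capitals, which in Chac1 lies on the other strand.
Asns, chr6:7693210-7693257, minus strand: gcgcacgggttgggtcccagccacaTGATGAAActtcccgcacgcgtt
Chac1, chr2:119351024-119351081, plus strand: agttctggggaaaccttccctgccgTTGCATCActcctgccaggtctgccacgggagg
A match is a run of letters only, and neither binding nor chromatin was measured.

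Library totals ran from 20760764 to 24117111 counts, and a gene with 0 counts could lie as high as 0.115 to 0.188 CPM (3 counts per library, counting error only). CPM is a gene's count relative to its library total on the usual scale, with the totals adjusted by TMM factors that ran from 0.764 to 1.23, and the share of counts in α-defensin (Defa) genes ran from 27.9 to 39.9%. Mt2, the metallothionein gene that zinc is known to induce, was at 3.95 ± 2.31 CPM in water and 283 ± 116 CPM in zinc (SD over 4 mice each). The change on the log2 scale was 6.15 (SE 0.51, edgeR quasi-likelihood test, Benjamini-Hochberg adjusted p = 0.0198). The 8 Paneth cell markers summed to 375104 to 723263 CPM in water and 353077 to 728383 CPM in zinc. The 7 plasma and B cell markers, of cells known for a strong XBP1 programme, summed to 26.2 to 42.8 CPM, of which Sdc1 made up nearly all, while Mzb1 was at 0 in every library and Jchain reached at most 0.0395 CPM. Of the 8 goblet cell markers, all were detected and 0 were called, and they summed to 18692, 13740, 11191 and 11403 CPM in water and to 17700, 14349, 13968 and 14475 CPM in zinc. Sums for the 10 enterocyte, 8 enteroendocrine and 6 tuft cell markers were 449 to 530, 42.5 to 109 and 14.5 to 122 CPM, and the 8 T cell and myeloid and 6 stroma and endothelium markers summed to 14.1 to 34.6 and at most 1.31 CPM, with 3 markers of each at 0 in all libraries. The 8 stem and dividing cell markers summed to 4526 to 5957 CPM in water and 3345 to 4671 CPM in zinc, nearly all of it the stem cell gene Olfm4 (4734 ± 575 CPM in water and 3404 ± 572 CPM in zinc, SD over 4 mice each). The change of Olfm4 on the log2 scale was -0.48 (SE 0.19), and the other stem cell genes of that list did not all follow it. Their changes were -0.24 (SE 0.14) for Ascl2, -0.02 (SE 0.16) for Lgr5 and 0.06 (SE 0.13) for Smoc2. The dividing cell genes of that list had the opposite sign to Olfm4. Top2a was at 104 ± 17.3 and 140 ± 16.3 CPM and Mki67 at 65.0 ± 13.3 and 85.3 ± 18.5 CPM in water and zinc. The 12 immediate early and heat shock genes that cell isolation is known to induce summed to 125, 149, 262 and 151 CPM in water and to 135, 194, 134 and 104 CPM in zinc, with 0 of 12 called. No gene of these 10 lists passed the adjusted threshold.

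For none of the 37 genes was a difference between zinc and water detected beyond the spread between mice. All 37 passed the low-count filter and were tested among 11988 genes, and 0 of 37 had an adjusted p below 0.05 by edgeR's quasi-likelihood test with Benjamini-Hochberg adjustment, where 0.0834% of all genes tested did. The count at an unadjusted p below 0.05 was also 0 of 37, against 4.65% of all genes, and it was 0 of 37 by DESeq2 and 1 of 37 by limma-voom. The lowest adjusted p among the members was 0.998. The log2 fold change, taken throughout as zinc against water, was above 0 for 28 of the 37 genes, against 51.9% of all genes, and ranged from -0.31 in Trib3 to 0.38 in Hyou1. In 0 of 37 genes did the 4 zinc libraries lie entirely above or below the 4 water libraries, against 2.84% of all genes. In bulk RNA, fewer cells of a type and less RNA per cell cannot be told apart.

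**Figure D1:**
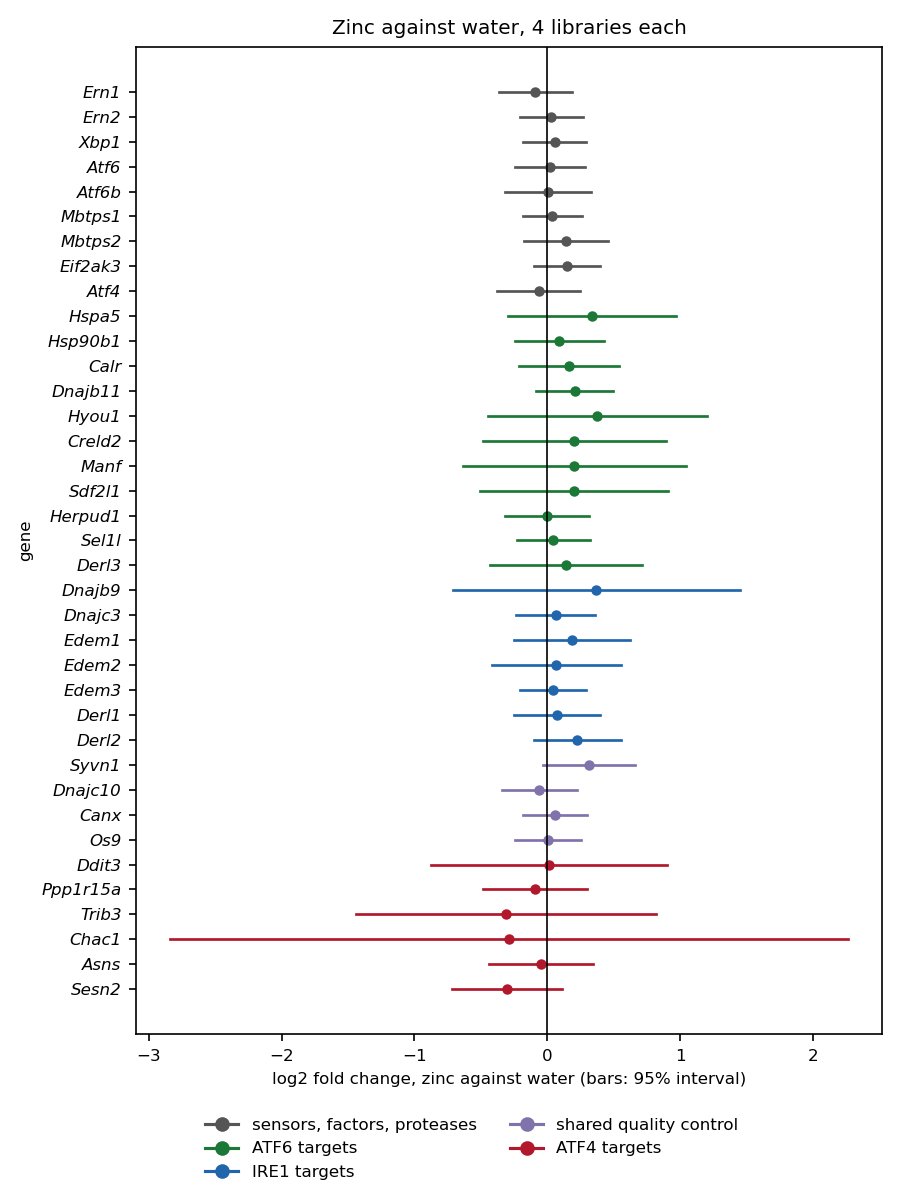
Log2 fold change of each gene, zinc against water (horizontal axis), with its 95% interval from the edgeR fit as a bar, for 37 genes coloured by set, 4 libraries per group. Every interval includes 0, and the widest belong to Chac1, Trib3 and Dnajb9.

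The sensors and transcription factors that stand at the head of the branches differed by at most 1.66 times between the 8 mice on the TMM scale. Ern1 (ENSMUSG00000020715, chr11:106283818-106378686 on GRCm39, the build of all gene positions below, minus strand, 23 merged exons), which encodes the widely expressed IRE1α, was at 100.4, 92.0, 98.4 and 79.2 CPM in water replicates 1 to 4 and at 94.3, 105.3, 72.3 and 75.7 CPM in zinc. The groups overlapped over nearly their whole range. Its log2 fold change was -0.09 (SE 0.13, 95% interval -0.37 to 0.19, edgeR quasi-likelihood unadjusted p = 0.503). Ern2 (ENSMUSG00000030866, chr7:121769116-121785468, minus strand), which encodes IRE1β, the form of mucosal epithelia, was at 78.5, 90.3, 77.2 and 67.9 CPM in water and at 73.0, 85.1, 80.2 and 82.7 CPM in zinc. All 4 zinc libraries lay within the range of the water libraries, with a log2 fold change of 0.03 (SE 0.11, 95% interval -0.20 to 0.27). Xbp1 (ENSMUSG00000020484, chr11:5470606-5483027, plus strand), the factor made active by IRE1, was at 263, 245, 235 and 221 CPM in water and at 273, 252, 251 and 225 CPM in zinc. Its highest library was 1.19 times its lowest in water and 1.21 times in zinc. Its log2 fold change was 0.06 (SE 0.11, 95% interval -0.18 to 0.29). Counts per gene do not separate spliced from unspliced Xbp1 mRNA, so the activity of IRE1 itself was not measured.

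Over the 8 libraries, the highest value was 1.66 times the lowest for Atf6b and 1.62 times for Atf4, against 1.24 times for Xbp1. Water replicates 3 and 4 were the 2 lowest libraries for Atf6b and Eif2ak3. Atf6 was at 61.9, 61.9, 57.1 and 44.5 CPM in water and at 50.4, 62.6, 61.2 and 54.0 CPM in zinc, with a log2 fold change of 0.02 (SE 0.13). Its paralogue Atf6b was at 72.9, 64.7, 43.9 and 48.3 CPM in water and at 58.3, 67.6, 54.6 and 49.8 CPM in zinc. Atf6b had the widest water range of these genes, 1.66 times from lowest to highest, and a log2 fold change of 0.00 (SE 0.15). Mbtps1, the site-1 protease, was between 61.6 and 76.2 CPM in all 8 libraries, and Mbtps2, the site-2 protease, between 9.58 and 12.9 CPM. Eif2ak3, which encodes PERK, was at 46.3, 50.3, 41.6 and 36.3 CPM in water and at 48.4, 50.8, 45.0 and 49.1 CPM in zinc, with a log2 fold change of 0.15 (SE 0.12, 95% interval -0.10 to 0.40). Atf4, which is controlled mainly at translation, was at 145.04, 150.6, 127 and 109 CPM in water and at 160, 138, 113 and 98.4 CPM in zinc. Replicate 4 was the lowest library for Atf4 in both groups, and the log2 fold change was -0.06 (SE 0.15). The 9 sensors, factors and proteases had a median log2 fold change of 0.03, against 0.01 for all genes, with 7 above and 2 below 0 and an unadjusted p of at least 0.224.

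The ATF6 target genes, the chaperones and folding helpers of the ER, varied more between mice than the sensors did on the TMM scale. Hspa5 (ENSMUSG00000026864, chr2:34661982-34668880, plus strand) encodes BiP, the Hsp70 chaperone that binds unfolded chains and holds the sensors inactive. It was at 783, 871, 409 and 339 CPM in water replicates 1 to 4 and at 624, 731, 915 and 767 CPM in zinc. Water replicates 3 and 4 lay below every other library, and water replicates 1 and 2 lay among the zinc libraries. The means were 600 ± 266 CPM in water and 759 ± 120 CPM in zinc (SD, n = 4 each). The difference on the log2 scale was 0.34 (SE 0.29, 95% interval -0.30 to 0.97, edgeR quasi-likelihood unadjusted p = 0.263), and it was 0.14 without water replicate 4 and 0.57 without water replicate 2.

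Hyou1 (ENSMUSG00000032115, chr9:44290418-44303666, plus strand), the nucleotide exchange factor that resets BiP, followed the same order of mice in water. Its values were 233, 268, 119 and 98.1 CPM in water and 169, 260, 277 and 225 CPM in zinc. Again water replicates 3 and 4 were the lowest of the 8, and the log2 fold change was 0.38 (SE 0.35, 95% interval -0.45 to 1.20). Manf, a small ER protein that binds BiP, was at 197, 172, 74.4 and 72.9 CPM in water and at 134, 144, 170 and 146 CPM in zinc. Here water replicates 1 and 2 were the highest and water replicates 3 and 4 the lowest of all 8 libraries, so that the zinc group lay wholly inside the gap, with a log2 fold change of 0.20 (SE 0.36). Sdf2l1, a partner of the co-chaperone ERdj3, was at 82.1, 83.9, 32.2 and 44.0 CPM in water and at 65.7, 82.0, 67.1 and 63.3 CPM in zinc. Creld2, a disulphide isomerase-like protein, was at 46.9, 60.2, 20.6 and 31.1 CPM in water and at 40.6, 52.7, 46.6 and 42.7 CPM in zinc. In both genes water replicate 3 was the lowest library, and the highest water library was 2.60 times the lowest for Sdf2l1 and 2.92 times for Creld2.

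The abundant lectin and Hsp90 chaperones moved over a narrower range in the same mice. Calr, which encodes calreticulin, was at 733, 803, 416 and 554 CPM in water and at 676, 729, 620 and 785 CPM in zinc. Hsp90b1, which encodes GRP94, was at 308, 411, 235 and 263 CPM in water and at 273, 367, 318 and 337 CPM in zinc. For both, water replicates 3 and 4 were the 2 lowest libraries, and the log2 fold changes were 0.17 (SE 0.18) and 0.09 (SE 0.16). Dnajb11, the co-chaperone ERdj3, had the smallest p of the ATF6 targets. It was at 86.0, 91.6, 58.2 and 61.4 CPM in water and at 86.7, 88.5, 84.5 and 82.8 CPM in zinc. Its zinc libraries differed by 1.07 times from lowest to highest and its water libraries by 1.57 times, with a log2 fold change of 0.21 (SE 0.14, 95% interval -0.09 to 0.50, edgeR quasi-likelihood unadjusted p = 0.155).

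The ERAD members among the ATF6 targets did not share this pattern. Herpud1, which organises the HRD1 complex, was at 302, 261, 243 and 255 CPM in water and at 317, 320, 210 and 214 CPM in zinc. Its lowest libraries were zinc replicates 3 and 4, and its log2 fold change was 0.00 (SE 0.15). Sel1l, the adaptor of HRD1, was at 229, 200, 191 and 149 CPM in water and between 186 and 221 CPM in zinc, with a log2 fold change of 0.05 (SE 0.13). Derl3, the derlin of secretory cells, was at 7.57 CPM in water replicate 1 and at 3.39, 3.89 and 3.90 CPM in the other water libraries, against 3.75 to 6.59 CPM in zinc. Of the 11 ATF6 targets, 10 had a log2 fold change above 0 and 0 of 11 were called, with a median of 0.20 and a lowest unadjusted p of 0.155. That median was 0.01 without water replicate 3 and 0.32 without water replicate 2.

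**Figure D2:**
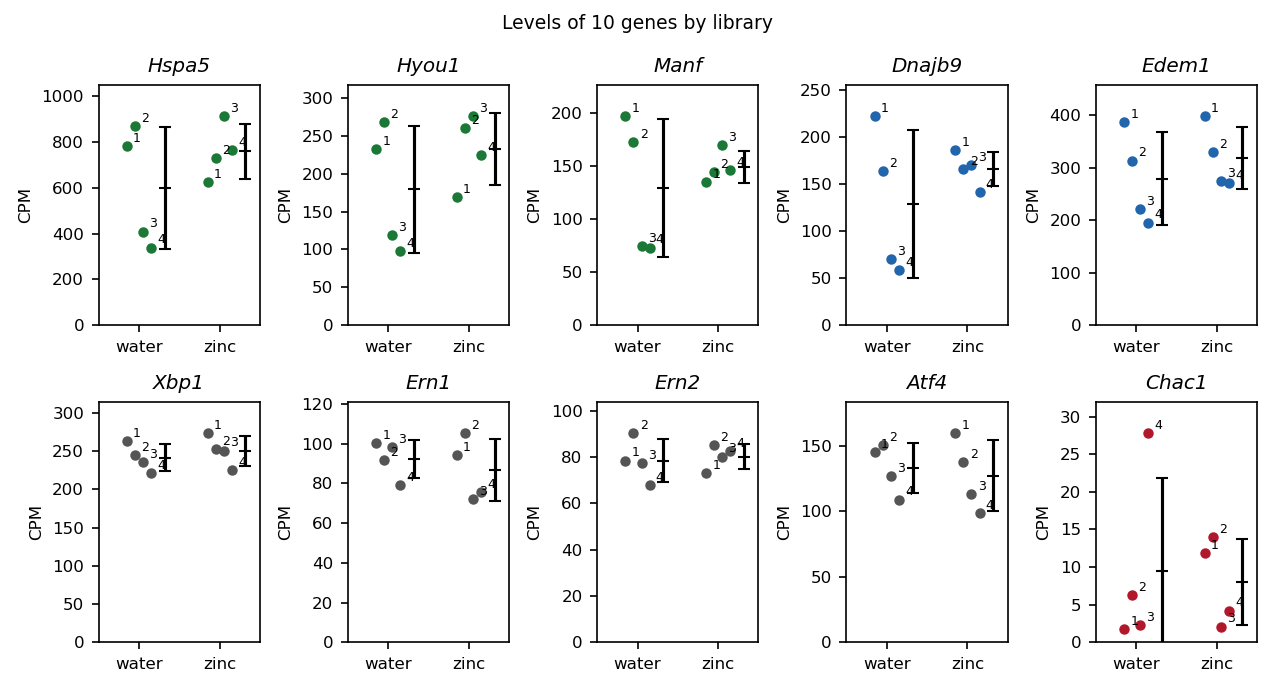
CPM on the TMM scale (vertical axes, each starting at 0) of 10 genes in the 4 water and 4 zinc libraries. Points are mice with their replicate number, black bars are mean ± SD, and colour gives the set (green ATF6 targets, blue IRE1 targets, grey sensors and factors, red ATF4 target). In Hspa5, Hyou1, Manf, Dnajb9 and Edem1 water replicates 3 and 4 lie below the other 6 libraries, whereas Xbp1, Ern1, Ern2 and Atf4 show no such gap. The lower bar of Chac1 in water reaches below 0 and is drawn to the axis.

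The IRE1 and XBP1 target genes, co-chaperones and the ERAD machinery, also split the water mice. Dnajb9 (ENSMUSG00000014905, chr12:44252341-44257171, minus strand) encodes ERdj4, the co-chaperone that hands BiP to IRE1. It was at 223, 164, 70.0 and 58.3 CPM in water and at 186, 166, 170 and 142 CPM in zinc. The highest water library was 3.82 times the lowest, and the zinc libraries differed by 1.31 times. The means were 129 ± 78.4 CPM in water and 166 ± 18.4 CPM in zinc (SD, n = 4 each). On the log2 scale the difference was 0.37 (SE 0.45, 95% interval -0.71 to 1.45, edgeR quasi-likelihood unadjusted p = 0.439), and it was 0.77 without water replicate 1 and 0.13 without water replicate 4. Edem1 (ENSMUSG00000030104, chr6:108805457-108838955, plus strand), a mannosidase-like protein that sends glycoproteins to ERAD, was at 387, 313, 222 and 195 CPM in water and at 399, 329, 275 and 271 CPM in zinc. Replicates 1 and 2 were above replicates 3 and 4 in both groups, and the log2 fold change was 0.19 (SE 0.20, 95% interval -0.25 to 0.63).

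Most of the other genes of this set had the same 2 low water libraries. Edem2, which starts mannose trimming, was at 313, 251, 171 and 156 CPM in water and at 292, 251, 208 and 182 CPM in zinc. Derl1 and Derl2 encode derlins of the channel through which misfolded proteins are drawn out of the ER. Derl1 was at 86.1, 76.6, 54.9 and 48.1 CPM in water and at 72.5, 71.7, 66.7 and 68.2 CPM in zinc. Derl2 was at 48.1, 41.8, 28.8 and 28.5 CPM in water and at 48.1, 41.6, 40.5 and 41.8 CPM in zinc. Derl2 had the smallest p of the set, with a log2 fold change of 0.23 (SE 0.16, 95% interval -0.10 to 0.56, edgeR quasi-likelihood unadjusted p = 0.165). Dnajc3, the co-chaperone p58IPK whose promoter holds both an ERSE and a UPRE core, was at 256, 259, 180 and 184 CPM in water and at 265, 231, 215 and 208 CPM in zinc. Edem3 was the exception, since its lowest libraries were water replicate 4 and zinc replicate 2, within a range of 82.6 to 113 CPM over all 8. All 7 IRE1 targets had a log2 fold change above 0, with a median of 0.07, and 0 of 7 were called. The median was -0.01 without water replicate 4 and 0.28 without water replicate 1.

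Of the 4 shared quality control genes, Syvn1 stood nearest to the threshold among all 37. Syvn1 (ENSMUSG00000024807, chr19:6096606-6103747, plus strand) encodes HRD1, the ubiquitin ligase at the centre of ERAD. It was at 64.3, 60.1, 43.5 and 36.2 CPM in water and at 52.6, 68.0, 68.3 and 64.3 CPM in zinc. Of the 4 zinc libraries, 3 lay above every water library and zinc replicate 1 lay between water replicates 2 and 3. The log2 fold change was 0.31 (SE 0.16, 95% interval -0.03 to 0.66, edgeR quasi-likelihood unadjusted p = 0.0735, Benjamini-Hochberg adjusted p = 0.998). Canx, the membrane lectin chaperone calnexin, was between 231 and 295 CPM in all 8 libraries, with a log2 fold change of 0.06 (SE 0.11). Dnajc10, the disulphide reductase ERdj5, was at 235, 186, 171 and 146 CPM in water and 167 to 190 CPM in zinc, and Os9, a lectin of the HRD1 complex, was at 203 to 260 CPM throughout. Among the 8 genes with an ERSE, the highest water library was between 1.28 times (Canx) and 2.92 times (Creld2) the lowest, and Dnajb9, which had no ERSE in its window, had 3.82 times.

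The targets of the PERK branch behaved differently from the chaperones. Chac1 (ENSMUSG00000027313, chr2:119180757-119184866, plus strand), a glutathione-degrading enzyme induced by ATF4, was at 1.81, 6.32, 2.28 and 27.8 CPM in water and at 11.9, 14.0, 2.09 and 4.23 CPM in zinc. Its highest library was water replicate 4, 15.3 times water replicate 1, and the groups overlapped. The log2 fold change was -0.29 (SE 1.05, 95% interval -2.84 to 2.27), and without water replicate 4 it was 1.17. Trib3, a pseudokinase, was at 0.876, 0.988, 2.54 and 3.21 CPM in water and at 1.90, 2.99, 0.632 and 0.776 CPM in zinc. Water replicates 3 and 4 and zinc replicates 1 and 2 were thus the high libraries for Trib3, and its log2 fold change was -0.31 (SE 0.53). Sesn2, a stress-induced inhibitor of mTORC1, was at 11.3, 8.25, 14.1 and 17.5 CPM in water and at 11.5, 11.3, 9.68 and 9.08 CPM in zinc. It had the smallest p of the ATF4 targets, with a log2 fold change of -0.30 (SE 0.20, 95% interval -0.72 to 0.11, edgeR quasi-likelihood unadjusted p = 0.143).

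Asns, the asparagine synthetase gene whose promoter holds a CARE, was the one abundant gene of this set. It was at 240.5, 233, 192 and 155 CPM in water and at 240.1, 246, 165 and 145 CPM in zinc, and replicates 1 and 2 were above replicates 3 and 4 in both groups. The log2 fold change was -0.04 (SE 0.18, 95% interval -0.44 to 0.35). Ppp1r15a, the GADD34 subunit that reverses eIF2α phosphorylation, was at 7.76, 7.30, 9.64 and 6.87 CPM in water and at 7.54, 8.84, 7.47 and 5.78 CPM in zinc. The groups overlapped for Ppp1r15a, and its log2 fold change was -0.09 (SE 0.19, 95% interval -0.48 to 0.30, edgeR quasi-likelihood unadjusted p = 0.617). Ddit3, which encodes CHOP, was between 0.535 and 1.94 CPM, or 14 to 48 counts per library. Its highest water library was 3.63 times its lowest. The 95% interval for the log2 fold change of Ddit3 was -0.87 to 0.90, so that changes within it remain possible. The parts of low counts and of the spread between mice in this width were not tested. Of the 6 ATF4 targets, 1 was above 0 and 5 below, with a median log2 fold change of -0.19 and 0 of 6 called. The median ranged from -0.30 without water replicate 2 to -0.04 without zinc replicate 4.

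**Figure D3:**
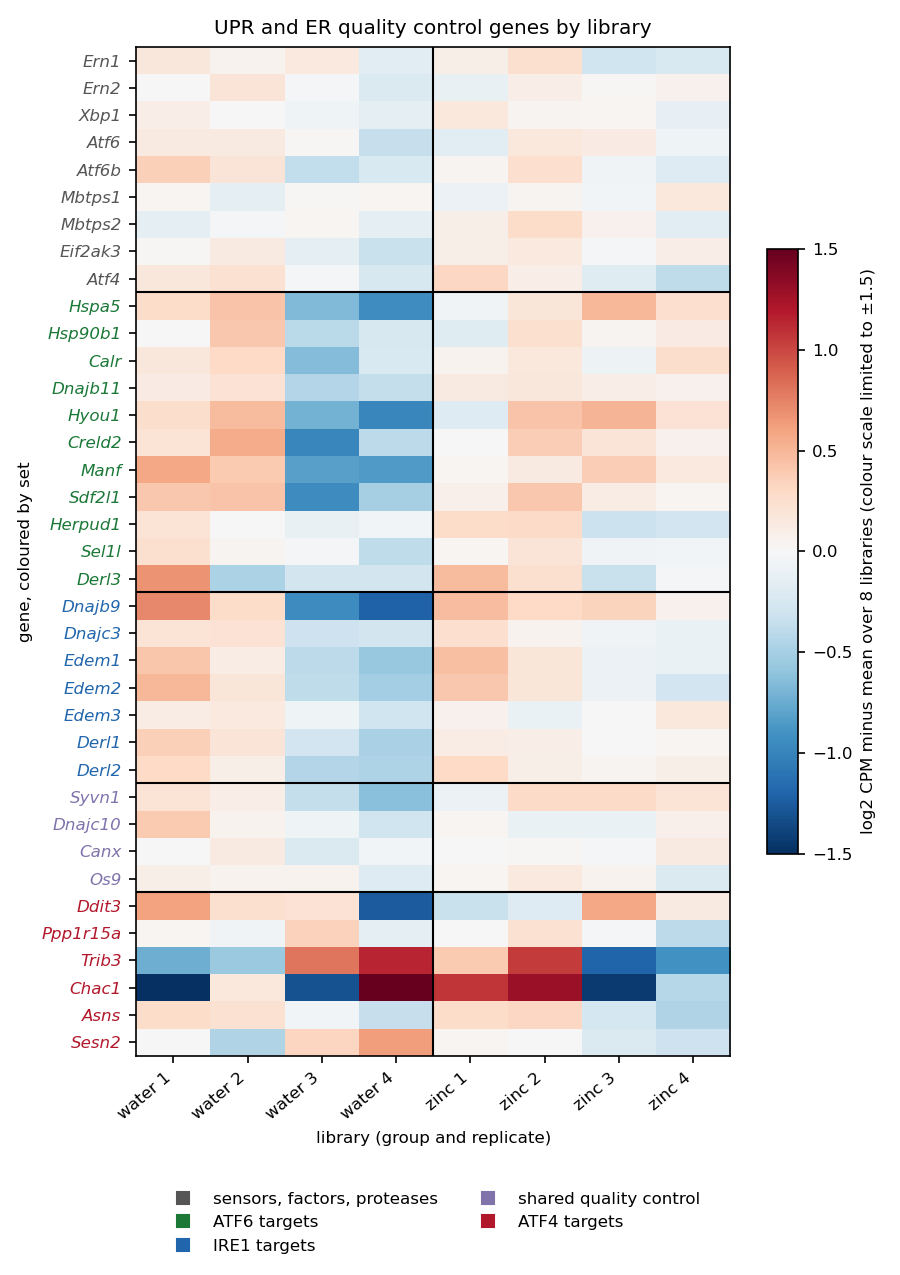
Log2 CPM of each of the 37 genes (rows, grouped by set) minus its own mean over the 8 libraries (columns), on the TMM scale, with the colour scale limited to ±1.5. Blue cells of the ATF6 and IRE1 targets gather in water replicates 3 and 4, the sensors are pale throughout, and the ATF4 targets Trib3 and Chac1 are red in water replicate 4 and zinc replicates 1 and 2.

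Side by side, the 3 branches had different profiles over the mice. For each set the log2 CPM of its genes was averaged per library relative to each gene's own mean over the 8 libraries. The ATF6 targets were at 0.28, 0.25, -0.55 and -0.47 in water replicates 1 to 4 and at 0.06, 0.25, 0.09 and 0.07 in zinc. The IRE1 targets were at 0.37, 0.17, -0.40 and -0.54 in water and at 0.29, 0.11, 0.02 and -0.02 in zinc. In both sets water replicates 3 and 4 lay below all other libraries, and the zinc libraries lay between the high and low water libraries or level with the high ones. The ATF4 targets were at -0.22, -0.08, 0.04 and 0.38 in water and at 0.24, 0.44, -0.42 and -0.39 in zinc. Water replicate 4, among the lowest libraries of the other 2 sets, was thus among the highest here. That level rested on Chac1 (27.8 CPM), Trib3 (3.21 CPM) and Sesn2 (17.5 CPM), each at its highest in water replicate 4. Ddit3 was at its lowest there (0.535 CPM), and Asns (155 CPM) and Ppp1r15a (6.87 CPM) were above only zinc replicate 4. The sensors, factors and proteases stayed between -0.20 and 0.15 in all libraries on the TMM scale. The difference of the zinc mean from the water mean was 0.24 for ATF6 targets, 0.20 for IRE1 targets, -0.07 for ATF4 targets and 0.03 for the sensors. The SD between libraries was 0.45, 0.44, 0.26 and 0.14 in water and 0.09, 0.14, 0.44 and 0.11 in zinc. Pooled within the groups it was 0.32, 0.33, 0.36 and 0.12. These SDs describe single libraries, and the differences between set means were not tested.

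**Figure D4:**
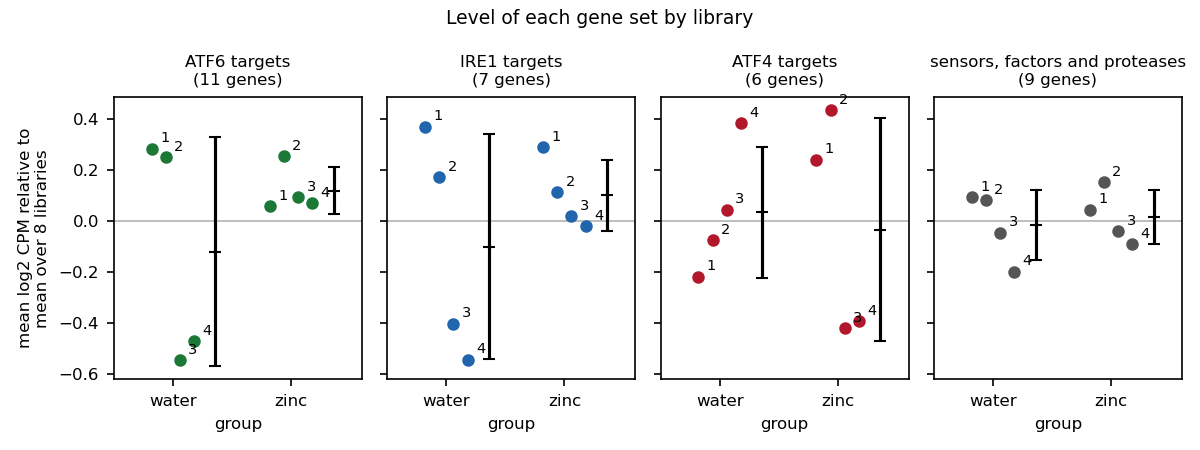
Mean log2 CPM of 4 gene sets relative to the mean over 8 libraries (vertical axis, shared by the panels) in water and zinc libraries. Points are mice with their replicate number and bars are mean ± SD over 4. For ATF6 and IRE1 targets water replicates 3 and 4 lie between -0.40 and -0.55, and the zinc points lie between -0.02 and 0.29.

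The spread between water mice exceeded that between zinc mice for the 2 chaperone and ERAD sets on this scale. The SD of the set level was 0.45 in water and 0.09 in zinc for ATF6 targets, and 0.44 and 0.14 for IRE1 targets. Gene by gene, the median SD of log2 CPM was 0.52 in water and 0.17 in zinc for ATF6 targets, 0.40 and 0.15 for IRE1 targets, 0.61 and 0.37 for ATF4 targets, and 0.25 and 0.21 for all genes tested. The SD was larger in water for 27 of the 37 genes, against 60.2% of all genes. Water replicates 3 and 4 were the 2 lowest of the 8 libraries for 18 of the 37 genes, against 8.68% of all genes, and these 18 comprised 8 of 11 ATF6 targets, 6 of 7 IRE1 targets, 2 of 4 shared genes, 2 of 9 sensors, factors and proteases, and 0 of 6 ATF4 targets. This pair was singled out after its values were seen. Of the 28 possible pairs, the next most frequent was water replicate 4 with zinc replicate 4, for 5 of the 37 genes. The difference in spread was not tested.

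How far this pattern went depended on the scaling. With library totals in place of TMM factors, water replicates 3 and 4 were the 2 lowest libraries for 7 of the 37 genes, against 1.02% of all genes, namely Hspa5, Hyou1 and Manf of the ATF6 targets and Dnajb9, Edem1, Edem2 and Derl2 of the IRE1 targets. On that scale water replicate 1 and zinc replicate 1 were the lowest pair for 12 of the 37 genes and for 53.1% of all genes. The level of all genes itself was -0.36, 0.02, 0.10 and 0.26 in water and -0.34, -0.003, 0.05 and 0.27 in zinc. Its SDs were 0.27 and 0.25, and the set levels by library totals include this shift. The set level of the ATF6 targets was then -0.11, 0.28, -0.45 and -0.19 in water and -0.31, 0.25, 0.17 and 0.36 in zinc, with an SD of 0.30 in each group. That of the IRE1 targets was -0.02, 0.20, -0.31 and -0.26 in water and -0.08, 0.11, 0.09 and 0.27 in zinc, with SDs of 0.23 and 0.14. The sensors, factors and proteases were at -0.29, 0.11, 0.05 and 0.08 in water and -0.32, 0.15, 0.03 and 0.20 in zinc. Their SDs were 0.19 and 0.23, against 0.27 and 0.25 for all genes on that scale, so the range of this set was wider than with TMM factors. As a share of all counts, Hspa5 was 0.0597, 0.0886, 0.0436 and 0.0411% in water and 0.0483, 0.0729, 0.0960 and 0.0939% in zinc. The SD was larger in water for 20 of the 37 genes by library totals, the same share as over all genes (6482 of 11988, 54.1%). With library totals, which leave the shift of all genes in the set levels, the ATF6 targets thus had no larger spread in water. Whether their spread differed relative to all genes on that scale was not tested. The differences between group means (0.23 and 0.20) were close to those above. Of the values given for the libraries, the goblet marker sum was lowest in water replicates 3 and 4 and the cell isolation genes were highest in water replicate 3. The enteroendocrine sum was highest in water replicate 3 (109 CPM), against 65.5 CPM in water replicate 4 and up to 88.0 CPM in zinc. The tuft sum was highest in water replicate 4 (122 CPM), against 52.4 CPM in water replicate 3 and up to 83.0 CPM in zinc. The goblet sum rested on Spink4, Ccl6 and Muc2, and water replicates 3 and 4 were the lowest pair for 2 of its 8 markers, while Clca1, Zg16 and Fcgbp were at 238, 82.1 and 1305 CPM in water replicate 4, the highest of the water libraries. The part of these cells in the levels was not tested.

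Between genes, levels were compared as CPM per kilobase of merged exons, averaged over the 8 libraries. Calr was the highest at 174 and Hspa5 the next at 122, followed by Herpud1 (68.5), Sdf2l1 (58.4) and Atf4 (54.8). The ranges of neighbours in the order overlapped for all pairs but 2, Mbtps1 (5.75) above Derl2 (4.28) and Derl3 (2.43) above Mbtps2 (0.875). Before division by length Mbtps2 was above Derl3, at mean CPM of 10.7 and 4.91. Their merged exons sum to 12.2 and 2.025 kb, so their order rests on the length used. Among the sensors, Ern2 stood at 26.4 (range 22.6 to 30.1) and Ern1 at 8.89 (7.17 to 10.4), so that IRE1β was above IRE1α in every library on this scale. The merged exons of Ern1 sum to 10.1 kb and those of Ern2 to 3.00 kb, alternative exons included, and in CPM not divided by length the means were 92.5 in water and 86.9 in zinc for Ern1 and 78.5 and 80.2 for Ern2. The order of these 2 genes therefore rests on the length used. Eif2ak3 (7.24) and Atf6 (5.79) lay below both, and Atf6b was at 17.2. The lowest were Trib3 (0.513) and Ddit3 (0.244).

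**Figure D5:**
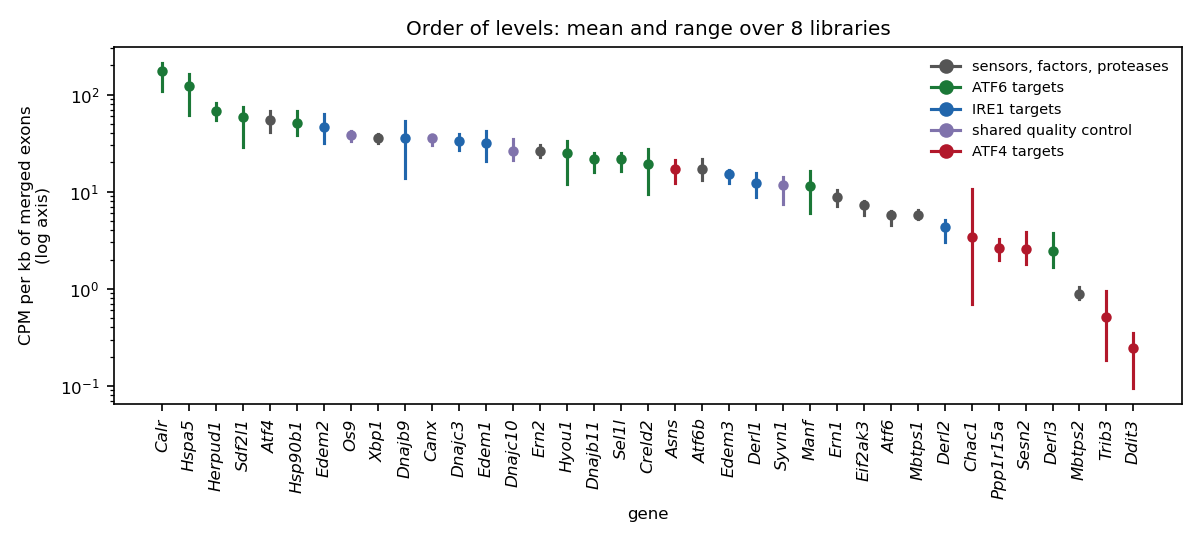
CPM per kilobase of merged exons (vertical log axis) of the 37 genes in order of their mean over 8 libraries (points), with the range over the libraries as a line and colour by set. The order runs from Calr at 174 to Ddit3 at 0.244, and most neighbouring ranges overlap.

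The wider pathway, taken as 6 lists that share no gene with the 37 and of which Wfs1 and Tmbim6 were each in 2, gave 0 calls in either direction. Of 26 further ER quality control genes, 21 were above 0 and 5 below, with a median log2 fold change of 0.06. Wfs1, an ER membrane protein of secretory cells, had the smallest p of that list and was at 35.4, 34.8, 19.7 and 15.7 CPM in water and at 33.2, 35.9, 35.6 and 33.8 CPM in zinc, at a log2 difference of 0.40 (SE 0.23, edgeR quasi-likelihood unadjusted p = 0.115). For 14 of these 26 genes water replicates 3 and 4 were the 2 lowest libraries with TMM factors and for 3 of 26 with library totals. Of the 20 genes of amino acid supply and related ATF4 control, 19 were tested, of which 3 were above and 16 below 0, with a median of -0.09. Vldlr had the smallest p, at a log2 difference of -0.39 (SE 0.17, edgeR quasi-likelihood unadjusted p = 0.0364, adjusted p = 0.998).

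The remaining lists were short. Of 6 mRNAs that IRE1 is known to cleave in other cells, 2 were tested, and Hgsnat had a log2 fold change of 0.13 (SE 0.13). Of 7 IRE1 signalling partners 6 were matched and tested, and the adaptor Traf2 was at 12.3, 10.7, 9.60 and 12.3 CPM in water and at 9.32, 9.37, 7.59 and 9.08 CPM in zinc, at a log2 difference of -0.35 (SE 0.16, edgeR quasi-likelihood unadjusted p = 0.0395, adjusted p = 0.998). Its zinc libraries all lay below its water libraries. The same held for Cebpb of the ATF4 list, at 8.69 to 10.2 CPM in water and 5.62 to 8.61 CPM in zinc. In either direction, the groups did not overlap for 2.84% of all genes. Of 10 eIF2α kinases and partners, 5 were above and 5 below 0, and Eif2ak2, the kinase activated by double-stranded RNA, had a log2 fold change of -0.32 (SE 0.17). Of 8 other factors of secretory stress 7 were tested, 6 above and 1 below 0, and Creb3l1, a membrane-bound factor released by the same proteases as ATF6, was at 129, 115, 103 and 113 CPM in water and at 114, 136, 132 and 206 CPM in zinc. Its log2 fold change was 0.36 (SE 0.16, edgeR quasi-likelihood unadjusted p = 0.0362, adjusted p = 0.998), and zinc replicate 4 was the highest library.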

How the data were processed

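RNA was extracted from sorted Paneth cells of 4 water and 4 zinc mice, and libraries were made with a stranded mRNA kit. The values deposited by the authors were raw counts of reads, given as whole numbers for each Ensembl gene ID and library in 1 table, without any scaling. The submitters' processing notes name FastQC 0.12.0, STAR 2.7.0a, DESeq2 and the build mm39 without saying what each was used for. The counting program, its strand setting and its treatment of reads that map to several places were not given in the sources used here. Reads of near-identical copies or of overlapping genes could therefore be split between rows.

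The 37 genes and all lists were chosen with earlier results of these data known. Symbols and coordinates came from GENCODE M39 on GRCm39 by gene ID, which matched 54749 of 55414 IDs. Where a symbol had 2 IDs, the one with the longest merged exons was used. Counts were fitted with edgeR 4.0.16 in R 4.3.3 (minimum count 10 in the low-count filter, TMM factors, robust quasi-likelihood fits, treatment as the only term), and Benjamini-Hochberg adjustment was applied over 11988 genes, with 0.05 as the threshold. Standard errors (SE) were obtained by dividing the size of the log2 fold change by the root of its F statistic. Log2 CPM used a prior count of 2. Levels by library totals used log2(CPM + 0.5). All 37 genes were described, with the sensors, the factors and in each target set the 3 genes of smallest p in full (and further genes where a result turned on them), and of each of the 6 wider pathway lists the gene with the smallest p. The procedure was tested on simulated counts.

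Promoter windows came from RefSeq (GRCm38.p6), were searched with exact letters in Python 3.11.15, and were not combined with GRCm39 coordinates. Depth was 20760764 to 24117111 counts per library, and a count of 0 was read as up to 3 counts. Alternatives were RLE factors, library totals, DESeq2 1.42.0, limma-voom (limma 3.58.1), no filter, a mean count of at least 50, Defa genes left out, the replicate number as a block, and each library left out in turn. Splicing of Xbp1 mRNA and protein sequences were not analysed here.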

Additional observations from a re-analysis of the deposited data

Results flagged for a closer look

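In groups of 4 libraries, 80 combinations of a gene or target set with a group were examined for a single library far from the other 3 (Dixon's test at the 95% level), and 4 stood out. Chance gives about 1 in 20. Derl3, the derlin of secretory cells, was at 7.57 CPM in water replicate 1, while the other water libraries held 3.39 to 3.90 CPM. Derl2, a derlin of the same ERAD channel, was at 48.1 CPM in zinc replicate 1, while the other zinc libraries held 40.5 to 41.8 CPM. Mbtps1, the site-1 protease, was at 61.6 CPM in water replicate 2, against 69.2 to 69.8 CPM in the others. Os9, the ERAD lectin, was at 205 CPM in water replicate 4, against 244 to 249 CPM in the others.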

How the results depend on the processing

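Among the 16 alternative settings 0 of the 37 genes passed the adjusted threshold, and the lowest adjusted p of a member was 0.579, in the edgeR fit with the replicate number as a block. Between 0 and 4 members had an unadjusted p below 0.05 in these fits. The number of genes past the threshold among all genes, 10 as reported, was 66 without the low-count filter, 34 by DESeq2 and 32 with the replicate block. It ranged from 1 to 15 when 1 library was left out, and was 1 without water replicate 2, 4 without water replicate 3 and 3 without zinc replicate 2. The causes were not tested, except that more genes (20836) were tested without the filter. Samples with the same number had correlations of deviations from their group means of 0.23, -0.0003, 0.12 and 0.26 for numbers 1 to 4. The correlation of pair 2 was below 0.1 and not every library correlated best with its own number, so the numbers were not taken to pair the samples. Same-numbered libraries were nevertheless alike in TMM factor (0.764 and 0.775, 1.02 and 0.998, 1.07 and 1.05, 1.21 and 1.23 for water and zinc 1 to 4) and in the share of Defa counts (39.9 and 38.5%, 34.0 and 34.0%, 33.2 and 33.2%, 29.2 and 27.9%), and whether a number marks a shared day or batch is not given in the labels. Members above 0 numbered 25 to 29 of those tested in the other settings and 20 to 31 with 1 library left out, lowest without water replicate 4. A log2 fold change kept its sign in all 16 settings for 14 of the 37 genes. Outside the leave-one-out settings 4 genes changed sign. Atf6b was at -0.00080 with RLE factors, -0.0010 by DESeq2, -0.0047 with a mean count of at least 50 and -0.0013 with Defa genes left out, Herpud1 at 0.0032 without the filter, Os9 at -0.0037 with a mean count of at least 50 and Chac1 at 0.21 with the replicate block. With 1 library left out, 23 genes changed sign at least once, and their log2 fold changes ranged from -0.16 to 0.077 for Asns, -0.19 to 0.038 for Atf4, -0.083 to 0.072 for Atf6, -0.11 to 0.14 for Atf6b, -0.0052 to 0.11 for Canx, -0.70 to 1.17 for Chac1, -0.015 to 0.47 for Creld2, -0.26 to 0.22 for Ddit3, -0.058 to 0.22 for Derl1, -0.00075 to 0.45 for Derl3, -0.16 to 0.074 for Dnajc10, -0.024 to 0.15 for Dnajc3, -0.073 to 0.28 for Edem2, -0.041 to 0.10 for Edem3, -0.036 to 0.10 for Ern2, -0.10 to 0.091 for Herpud1, -0.020 to 0.26 for Hsp90b1, -0.017 to 0.069 for Mbtps1, -0.058 to 0.069 for Os9, -0.19 to 0.013 for Ppp1r15a, -0.012 to 0.40 for Sdf2l1, -0.064 to 0.14 for Sel1l and -0.83 to 0.062 for Trib3. With 4 mice a group the 95% intervals ran to 1.45 for Dnajb9 and 2.27 for Chac1, and Ddit3 rested on 14 to 48 counts per library.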
